A study of Mus musculus with 20 samples.

Results

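Raptor-floxed bone marrow cells were set against wild-type cells after both had been cultured with macrophage colony-stimulating factor (M-CSF). The arrays were chosen by their titles alone: 4 arrays of CreER-Rptor-flox/flox Lin- cells with M-CSF and 4 arrays of wild-type (WT) Lin- cells with M-CSF, which are 8 of the 20 arrays of the series. Both groups came from female mice on a C57BL/6 background. Lin- cells, marrow cells that lack the surface markers of mature blood lineages, were sorted fresh and given 10 ng/ml M-CSF for 12 h in both genotypes. The CreER-Rptor-flox/flox cells, called Rptor cells here, carry a tamoxifen-dependent Cre recombinase and Rptor alleles that Cre can inactivate. The labels state neither the promoter of CreER nor whether or when Cre was induced, and they do not say whether WT mice carried Cre. The other 12 arrays hold common myeloid progenitors (CMP) and granulocyte-macrophage progenitors (GMP) of the same 2 genotypes, taken without culture, with 3 arrays per genotype in each. They are used only to show where the cultured cells differ. Of 22180 genes with a probe set of their own, 16638 were bright enough to be tested.

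M-CSF binds the receptor tyrosine kinase Csf1r on myeloid progenitors and drives them to survive, divide and become monocytes and macrophages. Raptor, the product of Rptor, is the scaffold that brings substrates to the kinase mTOR in mTOR complex 1 (mTORC1), which couples growth factor and amino acid signals to protein, lipid and nucleotide synthesis and restrains lysosome and autophagy genes. Rictor takes the place of Raptor in the other complex, mTORC2. Transcription factors such as PU.1 (Spi1), Irf8 and Klf4 are known for turning progenitors toward the monocyte fate.

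The 8 arrays had median log2 signals of 4.76 to 4.86, and the highest correlation of an array with another of its group was 0.982 to 0.989. Around the mean of its group, an array's values spread over genes by an SD of 0.171 to 0.236, against 0.12 to 0.155 in CMP and 0.109 to 0.168 in GMP arrays. The label names a sort and not a cell type, and genes of several lineages read high in both genotypes. The neutrophil calprotectin gene S100a8 lay between 12.32 and 12.39 in Rptor arrays, against 12.25 to 12.53 in WT arrays. The granule enzyme gene Mpo lay between 12.26 and 12.30 in Rptor arrays, against 11.94 to 12.26 in WT arrays. Markers of stroma and endothelium, which should be absent, averaged 5.55 to 5.63 in Rptor and 5.49 to 5.59 in WT arrays. RMA values have no true zero, and no detection calls were used, so it is not known which markers were absent. Nothing in the labels says that replicates are different mice. The p-values therefore rest on how much these samples vary, and that variation may be technical.

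WT replicate 3 stood apart. It had the SD of 0.236 and the correlation of 0.982, against 0.987 or more for every other array, and all 32 tested genes of the mature neutrophil list were higher there than in the other WT arrays, 29 of them higher than in all other 7 arrays. The list averaged 9.53, 9.86, 9.39 and 9.78 in Rptor arrays, against 9.43, 9.43, 10.54 and 9.11 in WT replicates 1 to 4. Its members exceeded their mean in the other WT arrays by a median of 1.12 log2 units in WT replicate 3, while the median over all genes was -0.01. Of the 50 genes with the greatest excess in that array, 8 belonged to the list. Where its removal changes the counts of a list, those counts are also given below. The part of mature neutrophils in that array's other values was not tested.

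The probe set of Rptor, the targeted gene, read 6.92, 6.98, 7.06 and 6.83 in Rptor arrays, against 7.05, 6.95, 7.34 and 7.17 in WT arrays. The groups overlapped, the difference was -0.18 log2 units (-0.11 without WT replicate 3), and a two-sided exact permutation test gave p = 0.143 (the lowest p possible with 4 and 4 arrays is 0.0286). The position of the probes against the floxed exon was not analysed here, and probes outside it would check no label. Mtor, the kinase, differed by 0.16 ± 0.09 (SE) and Rictor by 0.10 ± 0.12, and neither passed (limma adjusted p = 0.402 and 0.724). Of 35 genes for mTOR complexes and their upstream regulators, 1 rose and 0 fell. It was Rragd, a Rag GTPase that recruits mTORC1 to lysosomes, at 5.68, 5.36, 5.30 and 5.42 in Rptor arrays, against 4.55, 4.31, 5.00 and 4.46 in WT arrays (0.86 ± 0.15, adjusted p = 0.00733), and a list count of 2 came without Rptor replicate 4. Of 22 genes for mTORC1 substrates and feedback to phosphoinositide 3-kinase, 0 were called in either direction, and 1 rose without WT replicate 2 or WT replicate 3.

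Across the array, 899 of 16638 genes passed limma's test at a Benjamini-Hochberg adjusted p under 0.05, which is 5.4% and is the background for the counts below. Of these, 477 were higher (2.87%) and 422 lower (2.54%) in Rptor cells. Without WT replicate 3 the count was 806 (4.84%), with 424 higher (2.55%) and 382 lower (2.3%), and 684 genes were called both ways with the same sign. The 4 Rptor arrays did not overlap the 4 WT arrays for 2312 genes (13.9%), 881 of them called. The falls reached further than the rises. At 4-fold or more, 23 called genes were lower and 6 higher, and at 8-fold or more 8 were lower and 2 higher. The median change over all tested genes was 0.01 log2 units.

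**Figure D1:**
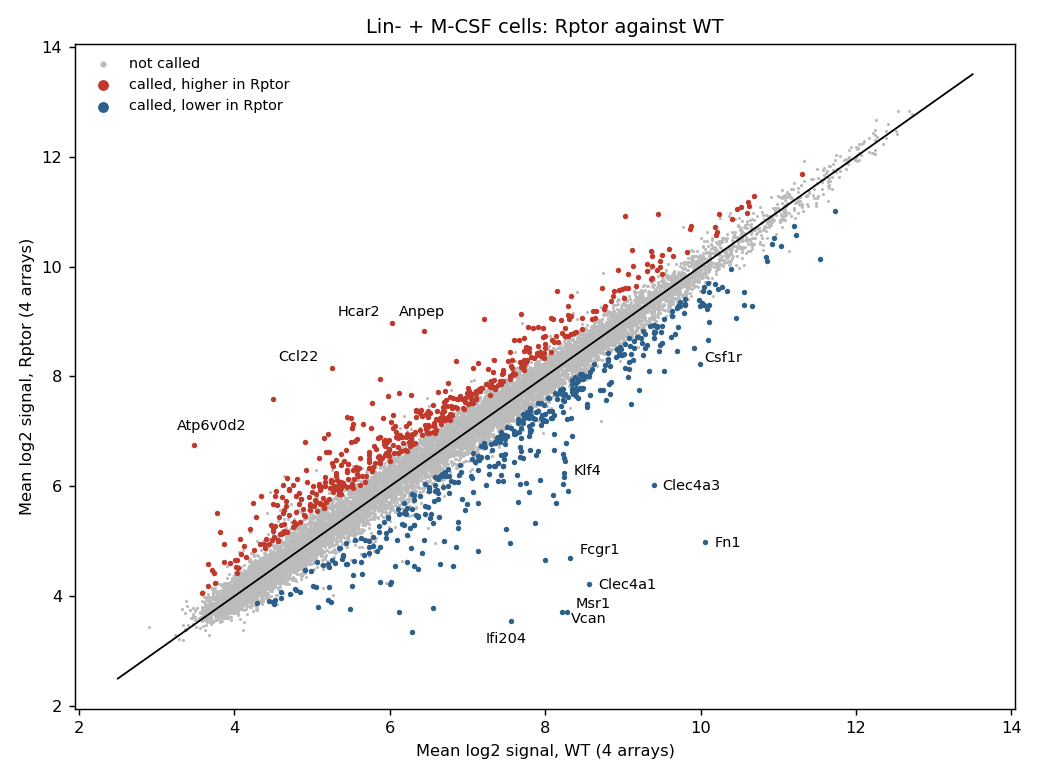
Mean log2 signal of each tested gene in Rptor (vertical) and WT (horizontal) Lin- cells with M-CSF, 4 arrays each, with the diagonal of equal signal. Red points are the 477 genes called higher in Rptor cells, blue points the 422 called lower, and grey points were not called; the lower-right points, such as Fn1 (4.99 against 10.06), lie furthest from the diagonal.

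Of the 15 genes of largest fall, 5 were in the list of monocyte and macrophage genes, which holds 48 of the 16638 tested genes. The list was written with earlier results of these data known, so this count is no independent result. Fn1, which encodes the matrix protein fibronectin, read 4.96, 4.76, 5.20 and 5.04 in Rptor arrays, against 10.03, 9.77, 10.54 and 9.91 in WT arrays. It was 33.7-fold lower (-5.07 ± 0.16, adjusted p = 1.59e-08). Msr1, the class A scavenger receptor of macrophages, read 3.68, 3.99, 3.61 and 3.57 in Rptor arrays, against 8.27, 7.84, 8.89 and 8.11 in WT arrays. It was 23.6-fold lower (-4.56 ± 0.20, adjusted p = 1.87e-07). Vcan, the matrix proteoglycan versican, was 22.6-fold lower (-4.50 ± 0.13), at 3.72 ± 0.19 in Rptor and 8.22 ± 0.20 in WT arrays (SD, n = 4 each). None of the 3 had overlapping groups, which the rule for picking the 15 genes required.

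The C-type lectin gene Clec4a1 read 4.32, 4.18, 4.27 and 4.15 in Rptor arrays, against 8.63, 8.50, 8.44 and 8.70 in WT arrays. It was 20.2-fold lower (-4.34 ± 0.10, adjusted p = 1.18e-09), with narrow and well separated groups. Its neighbour in the family, Clec4a3, fell by 3.36 ± 0.14. Fcgr1, the high-affinity receptor for immunoglobulin G, read 5.01, 4.62, 4.76 and 4.38 in Rptor arrays, against 8.24, 8.33, 8.44 and 8.27 in WT arrays, and was 12.3-fold lower (-3.62 ± 0.13, adjusted p = 4.85e-08). Ms4a4a and Ms4a4c, membrane proteins of the Ms4a family, fell by 2.93 ± 0.28 and 2.53 ± 0.24. Tlr8, a Toll-like receptor for RNA in endosomes, fell by 2.77 ± 0.21. Lower too were Aif1, the calcium-binding protein Iba1 of macrophages (-2.44 ± 0.11), the transporter gene Abca9 (-2.40 ± 0.21) and Apoc2, the activator of lipoprotein lipase (-2.37 ± 0.20). Ifi204, an interferon-inducible gene, read 3.85, 4.03, 2.84 and 3.47 in Rptor arrays, against 6.80, 7.15, 8.04 and 8.26 in WT arrays (-4.01 ± 0.33, adjusted p = 5.47e-05). Mean Rptor levels of Msr1, Vcan, Ifi204, Ms4a4a, Tlr8 and Abca9 lay below 3.86, the level under which a gene was left out as dim, so their falls end near the bottom of the scale. As a group mean, Msr1 reached 3.86 only in WT cultured arrays, and Vcan and Ms4a4a only there and in Rptor GMP (4.05 and 3.92). Ifi204 reached it there and in WT CMP and WT GMP (4.43 and 4.48). For each of these genes, the mean over all arrays but the WT cultured ones lay below 3.86. Msr1, Vcan, Ms4a4a and Ifi204 thus passed the filter, a mean over 20 arrays, only through the WT cultured arrays. That favours a fall, so their p-values are no support for it.

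Ly6g and Il1b were highest in WT replicate 3. Ly6g, a surface protein of neutrophils, read 4.40, 5.00, 4.44 and 4.82 in Rptor arrays, against 7.34, 7.62, 9.84 and 7.18 in WT arrays (-3.33 ± 0.47, adjusted p = 0.00237). Il1b, the inflammatory cytokine interleukin 1 beta, read 4.72, 4.88, 4.79 and 5.46 in Rptor arrays, against 7.03, 6.84, 9.24 and 7.07 in WT arrays (-2.58 ± 0.44, adjusted p = 0.00615). Every other WT array also lay above every Rptor array, as the rule for picking the genes required. Without WT replicate 3 the changes were -2.72 (adjusted p = 1.56e-05) for Ly6g and -2.02 (adjusted p = 0.000144) for Il1b.

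The upstream sequences of Fcgr1 and Clec4a1 are shown because these receptors had well separated groups and because their windows hold GAGGAA, the core of sites bound by PU.1, the myeloid factor encoded by Spi1. They are the 250 bases before the gene start from RefSeq, 5′ to 3′ on the gene's strand, in lower case with GAGGAA or its reverse complement TTCCTC in capitals.
Fcgr1 (GRCm38.p6, chr3:96293970-96294219, minus strand): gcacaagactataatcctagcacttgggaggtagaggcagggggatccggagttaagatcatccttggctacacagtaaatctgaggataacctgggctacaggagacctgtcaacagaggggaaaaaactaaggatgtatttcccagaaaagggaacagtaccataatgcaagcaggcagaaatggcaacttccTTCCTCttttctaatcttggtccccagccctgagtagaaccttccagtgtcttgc
Clec4a1 (GRCm38.p6, chr6:122921598-122921847, plus strand): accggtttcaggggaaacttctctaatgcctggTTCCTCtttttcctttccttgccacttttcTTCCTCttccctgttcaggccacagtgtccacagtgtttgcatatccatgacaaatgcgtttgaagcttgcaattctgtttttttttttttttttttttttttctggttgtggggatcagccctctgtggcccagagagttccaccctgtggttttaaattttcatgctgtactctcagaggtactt
The motif was searched on both strands, and a gene with several listed starts counts if the window of any start holds it. It occurred in 8 of the 12 genes of the 15 that had a window in the table (66.7%), in 8 of 18 called lower in the monocyte and macrophage list (44.4%) and in 25.9% of 27025 genes. Among rising genes with a window, it occurred in 1 of 9 of the 15 genes of largest rise (11.1%) and in 3 of 8 erythroid genes called higher (37.5%). The motifs were chosen with these values known, and a match describes these letters only.

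**Figure D2:**
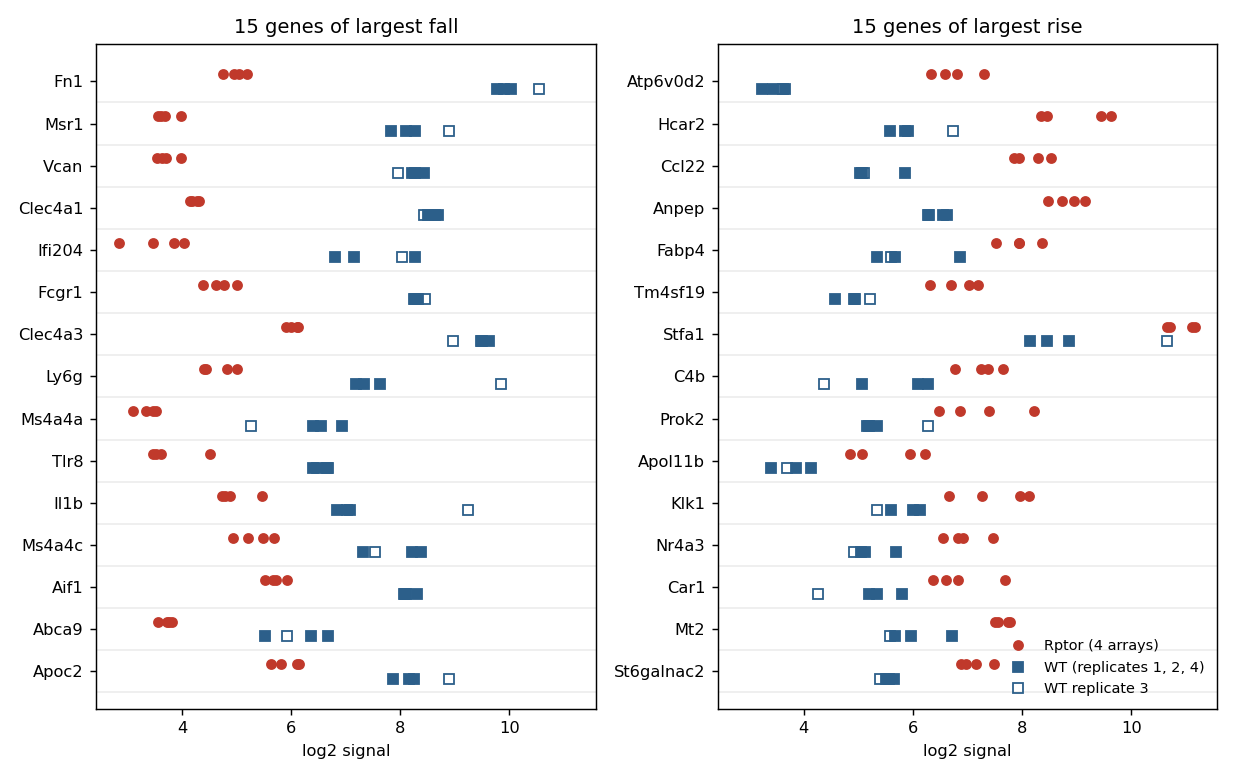
Log2 signal on each array for the 15 genes of largest fall (left) and the 15 of largest rise (right). Red circles are the 4 Rptor arrays, blue squares WT replicates 1, 2 and 4, and open squares WT replicate 3, which lies apart from the other WT arrays for Ly6g (9.84), Il1b (9.24) and Stfa1 (10.66).

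The 15 genes of largest rise were more varied. Atp6v0d2, a subunit of the vacuolar proton pump known from osteoclasts, read 6.60, 7.31, 6.80 and 6.33 in Rptor arrays, against 3.23, 3.45, 3.62 and 3.65 in WT arrays. It was 9.67-fold higher (3.27 ± 0.19, adjusted p = 2.89e-06), and the WT level lay below 3.86. Its means in the CMP and GMP groups were 2.93 to 3.43. Atp6v0d2 therefore passed the filter, a mean over 20 arrays, only through the Rptor cultured arrays. Hcar2, the receptor for nicotinic acid and hydroxybutyrate, read 8.46, 9.62, 8.34 and 9.44 in Rptor arrays, against 5.86, 5.59, 6.74 and 5.92 in WT arrays. It was 7.67-fold higher (2.94 ± 0.31, adjusted p = 0.000342). Ccl22, a chemokine for regulatory and helper T cells, read 7.86, 8.30, 8.52 and 7.95 in Rptor arrays, against 5.85, 5.04, 5.10 and 5.07 in WT arrays, and was 7.43-fold higher (2.89 ± 0.20, adjusted p = 1.37e-05). The groups of all 3 genes were apart, again by the rule for picking them.

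Anpep, the surface aminopeptidase CD13, rose by 2.39 ± 0.15 and Fabp4, a fatty acid carrier, by 2.07 ± 0.29. Nr4a3, an orphan nuclear receptor of the immediate early class, read 6.54, 6.92, 6.83 and 7.48 in Rptor arrays, against 5.70, 5.13, 4.93 and 5.05 in WT arrays (1.74 ± 0.21, adjusted p = 0.000842). Tm4sf19 (1.90 ± 0.19), the complement gene C4b (1.81 ± 0.36), the secreted peptide gene Prok2 (1.74 ± 0.34), Apol11b (1.74 ± 0.28), the serine protease gene Klk1 (1.74 ± 0.29), the red cell carbonic anhydrase Car1 (1.73 ± 0.33), the metallothionein Mt2 (1.67 ± 0.21) and the sialyltransferase St6galnac2 (1.60 ± 0.14) also rose. The protease inhibitor gene Stfa1, which neutrophils express, read 10.66, 11.12, 10.71 and 11.16 in Rptor arrays, against 8.86, 8.45, 10.66 and 8.15 in WT arrays. WT replicate 3 all but met the lowest Rptor array. Stfa1 rose by 1.88 ± 0.43 (adjusted p = 0.0264), by 2.42 without WT replicate 3 (adjusted p = 6.39e-05), and lost its call when any other array was left out (adjusted p up to 0.0775). One unnamed transcript was passed over among the rises.

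The M-CSF receptor gene was lower in Rptor than in WT cells, both cultured with its ligand. Csf1r read 8.61, 8.46, 8.55 and 8.46 in Rptor arrays, against 9.78, 9.93, 9.98 and 9.95 in WT arrays, which is 2.62-fold lower (-1.39 ± 0.10, adjusted p = 1.37e-05). It was the 1 called gene of 22 for the receptor and its signalling adaptors, with a list median of -0.09. Of 18 tested transcription factors of the monocyte lineage, 2 rose and 3 fell. Klf4, a factor of monocyte maturation, read 6.48, 6.52, 6.63 and 6.22 in Rptor arrays, against 8.04, 8.25, 8.55 and 8.16 in WT arrays (-1.79 ± 0.13, adjusted p = 2.68e-05). Maf, a factor of macrophage maturation, fell by 1.29 ± 0.26 (adjusted p = 0.0147). Irf8, a factor of monocyte and dendritic cell fate, fell by 0.54 ± 0.13 (adjusted p = 0.0358), a call lost when any of 6 arrays was left out, all but Rptor replicate 3 and WT replicate 3 (adjusted p up to 0.101). The factors that rose were the immediate early genes Nr4a1 (0.99 ± 0.19) and Egr2 (0.64 ± 0.13), the call of Egr2 being lost without Rptor replicate 3 or WT replicate 4. Spi1 (-0.19 ± 0.12, adjusted p = 0.419), Cebpa (0.28 ± 0.11, adjusted p = 0.204) and Cebpb (-0.13 ± 0.18, adjusted p = 0.748), whose products open myeloid genes, did not pass.

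Genes that mature monocytes and macrophages express were lower as a group. Of 48 tested, 22 fell and 1 rose, a called share of 47.9% beside the 5.4% of all genes, and 20 fell and 0 rose without WT replicate 3. Among the 22, Msr1 and Vcan passed the brightness filter only through the WT cultured arrays, which favours a fall. How many other members did so was not counted. The list's median change was -0.53, against 0.01 over all genes. Its mean level was 7.51 to 7.72 in Rptor arrays and 8.37 to 8.57 in WT arrays, so the groups were apart. Besides Fn1, Msr1, Vcan, Fcgr1 and Ms4a4c, the list held Ms4a6c (-1.77 ± 0.12) and Adgre1, the macrophage surface protein F4/80, which read 6.70, 7.00, 6.63 and 6.79 in Rptor arrays, against 8.10, 8.33, 8.46 and 8.20 in WT arrays (-1.49 ± 0.12, adjusted p = 4.61e-05). The chemokine receptors Cx3cr1 (-1.20 ± 0.19) and Ccr2 (-0.67 ± 0.14) fell less. The member that rose was the protease gene Mmp19 (0.62 ± 0.16), whose call was lost without WT replicate 3 (adjusted p = 0.0563) and without Rptor replicates 1, 2 or 3 or WT replicates 2 or 4. Several of these genes were known from earlier results when the list was written. In RNA of whole samples, fewer cells of a type and less RNA per cell cannot be told apart.

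Of 22 immediate early and feedback genes, which answer growth factor signals through the kinase ERK, 5 rose and 0 fell (22.7% called), with a median of 0.18, and again 5 rose and 0 fell without WT replicate 3. The list averaged 6.62 to 6.85 in Rptor arrays and 6.34 to 6.77 in WT arrays, so its means overlapped. Spry2, a feedback inhibitor of receptor signalling, read 7.56, 7.84, 7.60 and 7.36 in Rptor arrays, against 6.97, 7.06, 6.99 and 6.69 in WT arrays (0.66 ± 0.13, adjusted p = 0.012). The phosphatases Dusp2 (0.63 ± 0.14) and Dusp4 (0.62 ± 0.14), Spry1 (0.55 ± 0.14) and the factor Egr3 (0.47 ± 0.12) were the others, all with adjusted p of 0.0231 or more. This count was fragile: without any of Rptor replicates 2, 3 and 4 or WT replicates 1, 2 and 4 it fell by over 1.5 times, to as low as 1.

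Cytokine and chemokine genes split. Of 26 inflammatory chemokines and cytokines, 6 rose and 1, Il1b, fell, and the same counts held without WT replicate 3. Csf1, which encodes M-CSF itself, read 7.15, 7.84, 7.10 and 7.43 in Rptor arrays, against 6.23, 6.56, 6.34 and 6.20 in WT arrays (1.05 ± 0.16, adjusted p = 0.00377). With Ccl22, the macrophage inflammatory chemokines Ccl4 (1.08 ± 0.19) and Ccl3 (0.80 ± 0.12), the vessel growth factor Vegfa (0.67 ± 0.11) and Il12b (0.66 ± 0.14) rose. Of 30 innate receptors and genes of NF-kB signalling, 4 fell and 0 rose. They were Tlr8, Tlr13, a sensor of bacterial RNA (-1.45 ± 0.21), Ly96, the partner of the lipopolysaccharide receptor (-1.30 ± 0.21), and Tlr9, a sensor of DNA (-0.84 ± 0.16).

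Interferon-responsive genes were lower. Of 5 tested genes of the Ifi200 family, DNA-binding proteins induced by interferon, 4 fell, with a median of -1.43 (the same count without WT replicate 3). Ifi204, 1 of the 4, passed the brightness filter only through the WT cultured arrays, which favours a fall. Ifi205 fell by 1.75 ± 0.24 and Ifi207 by 1.07 ± 0.18. Ifi209 read 8.42, 8.10, 7.84 and 8.04 in Rptor arrays, against 9.18, 9.74, 9.11 and 10.08 in WT arrays (-1.43 ± 0.21, adjusted p = 0.00272). Family members resemble each other, and their probe sets may share signal. Of 39 other interferon-stimulated genes, 9 fell and 0 rose (23.1% called), with a median of -0.31 and again 9 and 0 without WT replicate 3. The antiviral gene Oasl2 read 6.38, 6.58, 6.22 and 6.31 in Rptor arrays, against 7.06, 7.31, 7.69 and 7.35 in WT arrays (-0.98 ± 0.14, adjusted p = 0.00238). Irf7, a transcription factor of the response, fell by 0.90 ± 0.15, Trim30d by 0.81 ± 0.14 and Rsad2, an antiviral enzyme, by 0.62 ± 0.11. The count was under 9 by over 1.5 times without Rptor replicate 1, Rptor replicate 3 or WT replicate 4, and as low as 5.

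Lysosome genes did not move together. Of 42 genes of the lysosome, autophagy and the Tfeb and Mitf factors, 4 rose and 3 fell, with a median of 0.02. Cathepsin C, encoded by Ctsc, read 9.02, 9.19, 9.15 and 8.91 in Rptor arrays, against 10.33, 10.60, 10.35 and 10.56 in WT arrays (-1.39 ± 0.11, adjusted p = 4.61e-05). The cathepsins Ctsh (-0.91 ± 0.13) and Ctss (-0.72 ± 0.11) also fell. Besides Atp6v0d2, which passed the brightness filter only through the Rptor cultured arrays, the enzymes Gaa (0.60 ± 0.14) and Neu1 (0.47 ± 0.12) and the lysosomal glycoprotein Gpnmb rose. Gpnmb read 10.76, 10.90, 10.83 and 10.95 in Rptor arrays, against 10.35, 10.29, 10.38 and 10.62 in WT arrays (0.45 ± 0.11, adjusted p = 0.03). Its call was lost when any array but WT replicate 4 was left out (adjusted p up to 0.0836), and with any 1 array left out the count of rises was 1 or 2 (2 without WT replicate 3).

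Of 22 genes of lipid binding, storage and efflux, 1 rose (Fabp4) and 5 fell, with 6 falls without WT replicate 3 and 2 rises without WT replicate 4. Lpl, which encodes lipoprotein lipase, read 4.30, 5.00, 4.37 and 4.50 in Rptor arrays, against 6.86, 6.15, 8.24 and 5.99 in WT arrays (-2.27 ± 0.40, adjusted p = 0.00732). The fatty acid transporter Cd36 read 4.47, 4.99, 4.51 and 4.37 in Rptor arrays, against 7.14, 5.98, 7.95 and 5.51 in WT arrays (-2.06 ± 0.42, adjusted p = 0.0159). WT replicate 3 was again the highest, and without it Lpl differed by -1.79 (adjusted p = 0.00168) and Cd36 by -1.62 (adjusted p = 0.0164). Pparg, a nuclear receptor that drives Fabp4 and Cd36 in fat cells, fell by 0.90 ± 0.12 and the lipoprotein receptor Scarb1 by 0.61 ± 0.12. The metallothionein genes Mt2 and Mt1 (0.73 ± 0.11), whose products bind zinc, were the 2 called of 7 tested genes for metallothioneins and zinc handling, and both rose.

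Cholesterol synthesis was the metabolic list with the lowest median. All 19 tested members had a change below 0, with a median of -0.40, and 6 fell and 0 rose (31.6% called), or 5 and 0 without WT replicate 3. Cyp51, the lanosterol demethylase, read 6.60, 6.59, 6.55 and 6.79 in Rptor arrays, against 7.50, 7.65, 7.58 and 8.02 in WT arrays (-1.05 ± 0.13, adjusted p = 0.00086). Hsd17b7, a sterol ketone reductase, read 6.00, 5.99, 5.93 and 5.63 in Rptor arrays, against 6.89, 6.99, 6.79 and 6.37 in WT arrays (-0.88 ± 0.15, adjusted p = 0.00566). The groups of both were apart. Squalene epoxidase, Sqle, fell by 0.81 ± 0.12, the sterol carrier Stard4 by 0.56 ± 0.11, the sterol oxidase Msmo1 by 0.54 ± 0.14 and the decarboxylase Mvd by 0.44 ± 0.09. The calls of Msmo1 and Mvd were lost when any of several arrays was left out (7 for Msmo1, all but WT replicate 2, and 5 for Mvd, namely Rptor replicates 1, 2 and 3 and WT replicates 2 and 4). Hmgcs1, an early enzyme of the pathway, differed by -0.29 ± 0.11 without passing (adjusted p = 0.149).

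The upstream windows of the 4 called members that have one are shown because the sterol-sensing factor SREBP-2 is known to act on such promoters together with the CCAAT-binding factor NF-Y. CCAAT or ATTGG and the sterol element TCACNNCAC are in capitals.
Cyp51 (GRCm38.p6, chr5:4104698-4104947, minus strand): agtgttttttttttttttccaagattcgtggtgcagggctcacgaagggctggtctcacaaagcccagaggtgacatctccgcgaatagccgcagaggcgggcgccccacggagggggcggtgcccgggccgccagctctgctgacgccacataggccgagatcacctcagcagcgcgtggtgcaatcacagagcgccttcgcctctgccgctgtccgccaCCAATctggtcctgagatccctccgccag
Hsd17b7 (GRCm38.p6, chr1:169969206-169969455, minus strand): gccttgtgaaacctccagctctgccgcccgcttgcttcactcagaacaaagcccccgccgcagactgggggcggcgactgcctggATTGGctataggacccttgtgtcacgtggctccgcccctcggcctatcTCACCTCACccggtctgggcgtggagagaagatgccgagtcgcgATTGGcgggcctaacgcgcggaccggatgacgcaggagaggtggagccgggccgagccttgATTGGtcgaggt
Msmo1 (GRCm38.p6, chr8:64733579-64733828, minus strand): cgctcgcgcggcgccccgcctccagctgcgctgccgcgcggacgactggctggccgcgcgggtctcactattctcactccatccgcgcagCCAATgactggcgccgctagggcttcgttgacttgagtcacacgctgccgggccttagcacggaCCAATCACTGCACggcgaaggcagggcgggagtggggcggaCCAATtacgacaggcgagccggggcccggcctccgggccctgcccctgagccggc
Mvd (GRCm38.p6, chr8:122443423-122443672, minus strand): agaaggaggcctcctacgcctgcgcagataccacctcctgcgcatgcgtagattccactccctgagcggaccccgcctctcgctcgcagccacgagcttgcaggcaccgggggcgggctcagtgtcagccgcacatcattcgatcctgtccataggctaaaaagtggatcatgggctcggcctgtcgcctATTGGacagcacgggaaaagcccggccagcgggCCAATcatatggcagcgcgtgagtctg
On both strands, CCAAT occurred in 15 of the 15 tested members with a window, against 37.5% of 27025 genes. TCACNNCAC, which overlaps the end of one CCAAT in Msmo1, occurred in 4 of the 15 (26.7%), against 3.63% of all genes. Of the 4 called members with a window, all held CCAAT and 2 held TCACNNCAC, and the other members with a window were not called.

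Of the metabolic lists left, the one for amino acid supply leaned lower, and the rest held 1 call or none. Of 28 targets of the stress factor ATF4 and genes of amino acid supply, 4 fell and 0 rose (14.3% called), with a median of -0.22. Of the 28, 22 had a change below 0, and the list averaged 7.96 to 8.03 in Rptor arrays and 8.07 to 8.29 in WT arrays. Asparagine synthetase, Asns, read 8.14, 8.39, 8.20 and 7.90 in Rptor arrays, against 9.07, 8.93, 9.08 and 9.03 in WT arrays (-0.87 ± 0.12, adjusted p = 0.00184). Mthfd2, an enzyme of mitochondrial folate metabolism, fell by 0.70 ± 0.10, Psat1, of serine synthesis, by 0.70 ± 0.14, and the tryptophan tRNA ligase Wars by 0.50 ± 0.11, a call lost without Rptor replicates 3 or 4 or WT replicates 1, 2 or 4. Without WT replicate 3, 1 member rose as well. Of 21 genes of glycolysis and glucose uptake 1 fell, the transporter gene Slc2a6 (-0.61 ± 0.14), whose call was lost without WT replicate 3 (adjusted p = 0.0575) and without Rptor replicates 1, 3 or 4 or WT replicate 4, while 1 member rose without Rptor replicate 3 or WT replicates 1 or 2. None was called among 14 genes of fatty acid synthesis (median -0.22), 20 of the pentose phosphate path and nucleotide synthesis (median 0.00) and 32 of the respiratory chain (median -0.06).

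Genes of protein synthesis held few calls. Of 30 cytosolic ribosomal protein genes 1 rose, Rplp0 (0.87 ± 0.11, adjusted p = 0.00102), with a median of 0.15 and 26 changes above 0. The list averaged 10.19 to 10.26 in Rptor arrays and 10.08 to 10.14 in WT arrays. Translation factors, of which 16 had a change above 0 and 10 below, averaged 9.48 to 9.52 in Rptor arrays and 9.37 to 9.47 in WT arrays. Of 26 translation factors 0 were called (1 rose without Rptor replicate 4), and of 36 ribosome biogenesis genes and Myc targets 1 rose and 1 fell. The one that rose was Myc itself, a driver of growth, which read 9.85, 10.00, 9.89 and 9.96 in Rptor arrays, against 9.62, 9.30, 9.34 and 8.99 in WT arrays (0.61 ± 0.13, adjusted p = 0.0199). Its call was lost without Rptor replicate 2 or WT replicate 2 (adjusted p up to 0.0586). The gene that fell was Mxd3, a partner of Max (-0.49 ± 0.10, lost without Rptor replicates 1 or 2), and without WT replicate 1 the list had 3 rises. Of 21 endoplasmic reticulum chaperones 1 rose and 2 fell, and of 15 heat shock genes 1 fell, all with adjusted p of 0.0343 or more. None of these 4 calls survived the removal of every single array, and without WT replicate 3 there were 0 rises and 1 fall among the chaperones and 0 falls among the heat shock genes.

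Of 28 genes of G2 and mitosis, all had a change below 0, with a median of -0.34, and 8 fell and 0 rose. Cep55, needed to end cytokinesis, read 6.92, 7.05, 6.91 and 6.99 in Rptor arrays, against 7.47, 7.93, 7.53 and 7.57 in WT arrays (-0.65 ± 0.12, adjusted p = 0.00804). The mitotic kinase Aurkb fell by 0.52 ± 0.11 and the checkpoint kinase Bub1b by 0.47 ± 0.11. The count rests on small margins: it was 5 without WT replicate 3, and 1 to 6 over all single arrays left out, smaller by over 1.5 times for each but WT replicate 1. Of 27 genes of S phase 2 fell, the replication factor Gins1 (-0.50 ± 0.12) and the nucleotide reductase Rrm1 (-0.48 ± 0.10). Of 21 genes of G1 2 fell, the factor E2f2 (-0.67 ± 0.14) and Rbl1 (-0.44 ± 0.11). These calls were close to the threshold as well. The count for S phase was 0 or 1 without any array but Rptor replicate 1 and WT replicate 3, and that for G1 was 0 or 1 without any but Rptor replicate 4 and WT replicate 3. Ccnd1, a cyclin of G1, differed by 0.17 ± 0.21 without passing (adjusted p = 0.737). Of 24 targets of p53 and death genes 1 rose, the stress gene Gadd45b (0.99 ± 0.16).

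**Figure D3:**
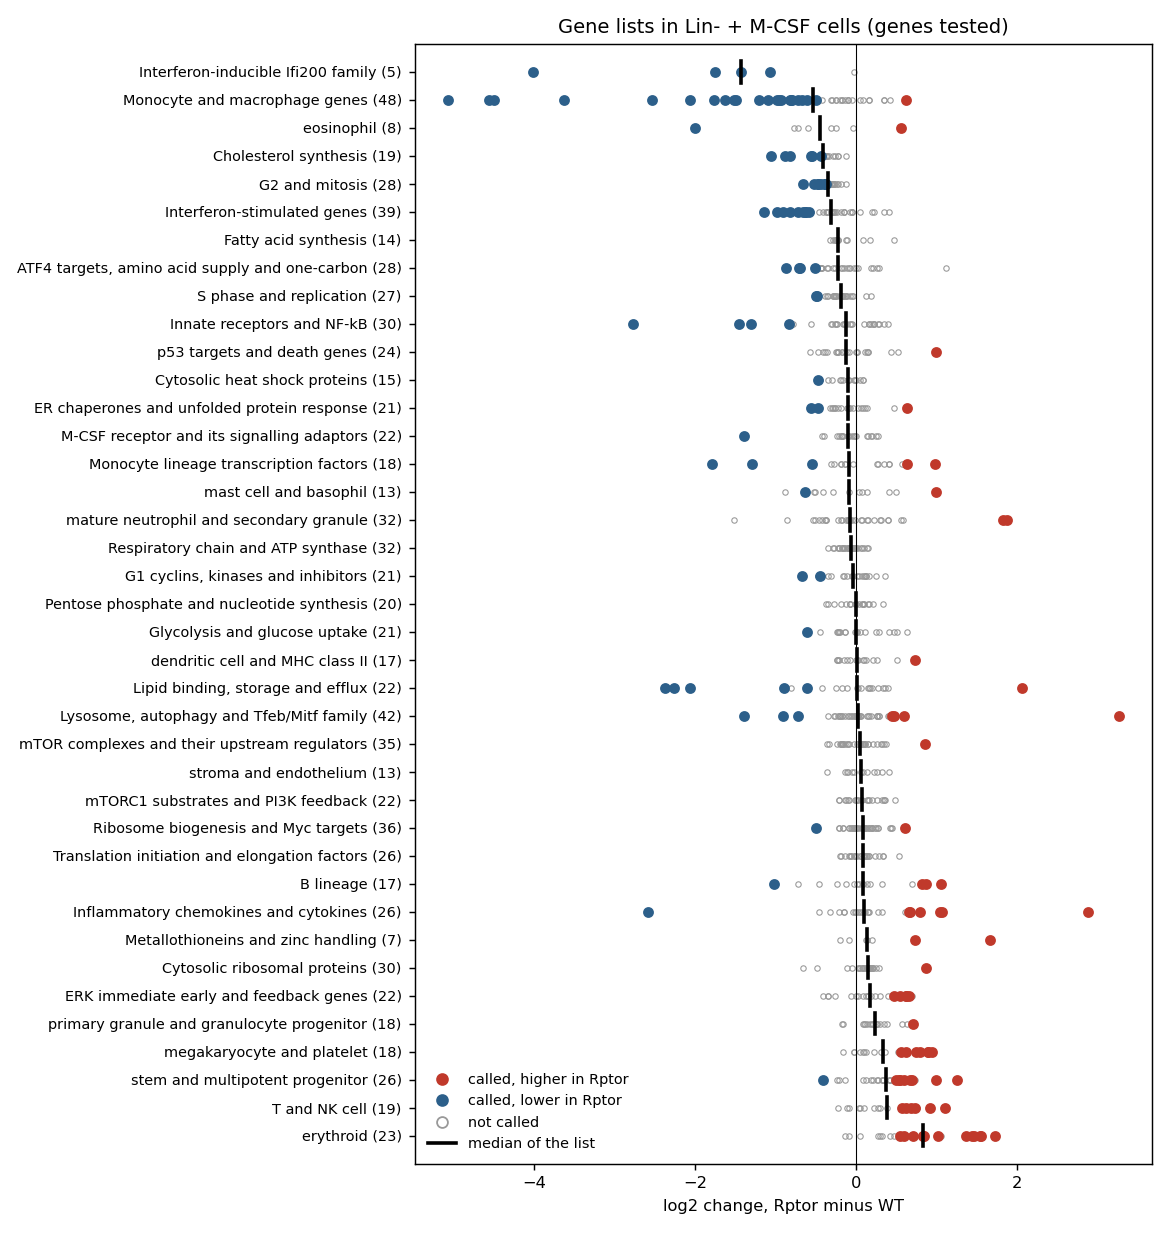
Log2 change (Rptor minus WT) of each tested member of 39 gene lists, with the number tested in brackets and the list's median as a black bar. Filled red and blue points were called higher and lower; monocyte and macrophage genes (median -0.53) lie to the left and erythroid genes (median 0.84) to the right.

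Of 23 erythroid genes, 13 rose and 0 fell (56.5% called), with a median of 0.84, and 11 rose without WT replicate 3. The list averaged 5.98 to 6.64 in Rptor arrays and 5.33 to 5.58 in WT arrays. Carbonic anhydrase 2, Car2, read 8.28, 8.49, 8.14 and 8.24 in Rptor arrays, against 6.89, 6.91, 6.62 and 6.98 in WT arrays (1.44 ± 0.12, adjusted p = 5.27e-05). The anion exchanger Slc4a1 rose by 1.54 ± 0.24, Cldn13 by 1.47 ± 0.22, the water channel Aqp1 by 1.02 ± 0.14 and Ank1, of the red cell skeleton, by 0.84 ± 0.14. With probe sets chosen by the 8 arrays alone, Ank1 differed by 0.37 and lost its call (adjusted p = 0.106). Of 18 megakaryocyte and platelet genes 7 rose and 0 fell, with a list mean of 6.68 to 6.85 in Rptor and 6.25 to 6.44 in WT arrays. The thrombin receptor F2r rose by 0.75 ± 0.13, von Willebrand factor, Vwf, by 0.80 ± 0.14, and the platelet factor Pf4 by 0.95 ± 0.18. Without WT replicate 3, 6 of them rose. These lists moved with the fall of the monocyte list, and their part in it was not tested.

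Of 26 stem and multipotent progenitor genes, 8 rose and 1 fell, with a median of 0.37, and 4 rose and 0 fell without WT replicate 3. Kit, the stem cell factor receptor, read 9.94, 9.93, 9.97 and 9.89 in Rptor arrays, against 9.12, 9.18, 8.74 and 8.73 in WT arrays (0.99 ± 0.12, adjusted p = 0.0011). Myct1 rose by 1.26 ± 0.17, and the transcription factors Meis1 by 0.70 ± 0.13 and Hlf by 0.60 ± 0.12. The gene that fell was Cd48 (-0.40 ± 0.09), whose call was lost whichever array was left out. The list averaged 6.67 to 6.82 in Rptor and 6.29 to 6.50 in WT arrays. Its count also fell to between 4 and 5 without Rptor replicates 1, 2 or 3 or WT replicate 4. Of 19 T and NK cell genes 6 rose and 0 fell, or 4 and 0 without WT replicate 3 and 3 and 0 without Rptor replicate 2, with a list mean of 6.67 to 7.00 in Rptor and 6.30 to 6.63 in WT arrays. Cd3d, a part of the T cell receptor complex, read 8.24, 8.23, 8.03 and 8.49 in Rptor arrays, against 7.27, 7.25, 7.46 and 6.57 in WT arrays (1.11 ± 0.18, adjusted p = 0.00496), and the signalling adaptor Lat rose by 0.74 ± 0.12. Of 17 B lineage genes 3 rose, among them the interleukin 7 receptor Il7r (0.87 ± 0.12), and 1 fell (2 and 1 without WT replicate 3), and the list mean overlapped between the groups (6.62 to 7.47 in Rptor, 6.70 to 7.10 in WT).

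Of 32 listed mature neutrophil genes, which do not include Ly6g (-3.33 ± 0.47), 2 rose and 0 fell, Stfa1 and its family member Stfa3 (1.84 ± 0.47), and without WT replicate 3 the counts were 3 and 1. Without any other single array 0 rose, and 1 fell without WT replicate 4. Ltf, the granule protein lactoferrin, read 10.58, 10.83, 10.36 and 10.58 in Rptor arrays, against 10.74, 10.74, 12.01 and 10.37 in WT arrays. It differed by -0.38 ± 0.29 (adjusted p = 0.521), or by -0.03 without WT replicate 3. Camp, the antimicrobial cathelicidin, differed by -0.38 ± 0.14 (adjusted p = 0.158) and Ngp, another granule protein, by -0.10 ± 0.12 (adjusted p = 0.721). S100a8 differed by -0.05 ± 0.10 and its partner S100a9 by 0.40 ± 0.27, neither passing (adjusted p = 0.864 and 0.466). Mmp9, a protease stored in neutrophil granules, read 7.22, 7.35, 6.72 and 7.49 in Rptor arrays, against 8.45, 8.20, 10.25 and 7.95 in WT arrays. It missed the threshold with all 8 arrays (-1.52 ± 0.41, adjusted p = 0.0558) and passed without WT replicate 3 (-1.01, adjusted p = 0.0134).

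Of 18 genes of primary granules and granulocyte progenitors 1 rose, the protease inhibitor Cst7 (0.71 ± 0.11), or 3 without WT replicate 2, while Mpo (0.18 ± 0.10, adjusted p = 0.358) and the elastase gene Elane (0.27 ± 0.13, adjusted p = 0.266) did not pass. Of 8 eosinophil genes 1 rose and 1 fell. The eosinophil peroxidase gene Epx read 6.26, 6.32, 6.45 and 5.96 in Rptor arrays, against 7.85, 9.18, 7.21 and 8.75 in WT arrays (-2.00 ± 0.34, adjusted p = 0.00626), so WT arrays 2 and 4 were the high ones. The surface lectin Siglecf rose by 0.56 ± 0.13, a call lost without Rptor replicates 1 or 2 or WT replicates 1 or 4, and 2 members fell without WT replicate 1. Of 13 mast cell and basophil genes 1 rose, Kit, and 1 fell, Il6ra (-0.63 ± 0.09), with 1 and 3 without WT replicate 3 and 1 and 2 without Rptor replicate 4. Of 17 dendritic cell and class II genes 1 rose, the chemokine receptor Ccr7 (0.73 ± 0.16, lost without Rptor replicates 2, 3 or 4 or WT replicate 1), and of 13 stroma and endothelium genes 0 were called.

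**Figure D4:**
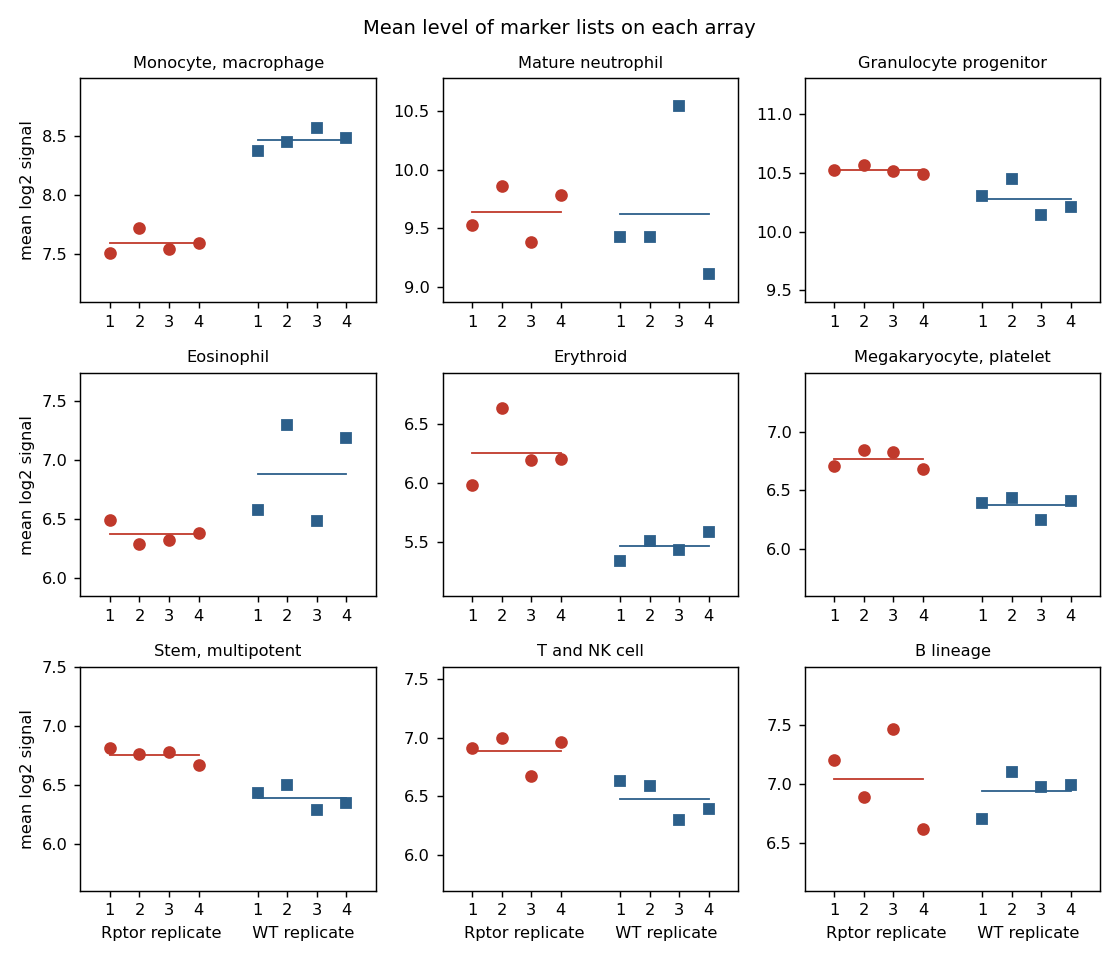
Mean log2 signal of the tested genes of 9 lists on each array, Rptor replicates 1 to 4 left (red circles) and WT replicates 1 to 4 right (blue squares), with each group's mean as a line and the same span on every vertical axis. The monocyte list is lower in all Rptor arrays (7.51 to 7.72, against 8.37 to 8.57), the erythroid list is higher, and WT replicate 3 stands out for mature neutrophil genes (10.54).

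Whether the genotype change in the cultured cells differed from that in freshly sorted progenitors was tested as a difference of changes in a fit of all 20 arrays. It differed from the CMP change for 1292 genes (7.77%, 718 more positive and 574 more negative) and from the GMP change for 793 genes (4.77%, 488 and 305). That fit takes a common spread for all arrays, although the cultured arrays spread more around their group means. With only the cultured arrays and the progenitor compared in the fit, the counts were 1027 for CMP and 610 for GMP. Of the 899 genes called in the cultured cells, 195 differed from both. Being called there favours a difference, and the share of all tested genes that differed from both was not counted. Culture with M-CSF, the sorted population and any difference in handling separate the cultured cells from CMP and GMP together and cannot be told apart.

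Of the 15 genes of largest fall, 13 changed differently in the cultured cells than in both progenitors, and of the 15 of largest rise, 6 did. These genes were picked for a large change in the same cultured arrays, which favours such differences. The counts therefore describe the picked genes only. Msr1 changed by -4.56 in cultured cells, against 0.18 in CMP and 0.11 in GMP. The differences were -4.74 (adjusted p = 7.75e-10) and -4.67 (adjusted p = 1.04e-09). Yet Msr1 was dim in the progenitors of both genotypes, at 3.68 ± 0.23 in Rptor and 3.50 ± 0.09 in WT CMP and at 3.54 ± 0.32 in Rptor and 3.44 ± 0.31 in WT GMP (SD, n = 3 each). Vcan changed by -4.50, against 0.18 in CMP and 0.41 in GMP, and Clec4a1 by -4.34, against 0.22 and 0.01. The differences for these genes were between -4.35 and -4.91. Vcan averaged 3.54 in WT CMP and 3.64 in WT GMP, Ms4a4a 3.39 and 3.40, and Clec4a1 3.90 and 3.96. At or near the bottom of the scale in WT progenitors, these 4 genes could show little or no fall there, so whether the genotype lowers them in progenitors could not be measured. A rise could be measured, and Vcan was called higher in Rptor than in WT GMP (0.41, limma adjusted p = 0.0409). Msr1, Clec4a1 and Ms4a4a were not called in CMP or GMP. Clec4a3 differed from CMP by -4.01 and Ms4a4a from GMP by -3.45. Fn1 fell in all 3 populations, with changes of -5.07 in cultured cells, -1.95 in CMP and -2.22 in GMP, and the cultured change was the larger one (differences -3.12 and -2.85, adjusted p = 1.42e-08 and 5.42e-08). Among the rises, Atp6v0d2 changed by 3.27, against 0.49 in CMP and 0.17 in GMP, Ccl22 by 2.89, against -0.02 and 0.21, and Hcar2 by 2.94, against 0.20 and 0.20, each with a difference of at least 2.68 (adjusted p at most 0.000118). Atp6v0d2 passed the brightness filter only through the Rptor cultured arrays, which favours such a difference, so its p-values are no support for it. The same holds for Msr1, Vcan and Ms4a4a, which passed only through the WT cultured arrays.

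Other genes changed less in the cultured cells. Gpnmb rose by 0.45, against 4.33 in CMP and 4.16 in GMP (differences -3.88 and -3.71, adjusted p = 1.03e-09 and 2.48e-09). In the cultured WT arrays its signal was already 10.41 ± 0.14 (SD, n = 4). Irf8 changed by -0.54, against -1.88 in CMP and -2.76 in GMP (differences 1.33 and 2.21, adjusted p = 0.00087 and 3.95e-06). Csf1r changed by -1.39, against -1.51 in CMP, a difference of 0.12 that did not pass (adjusted p = 0.754), and -2.20 in GMP, a difference of 0.80 that did (adjusted p = 0.00151). Ifi209 changed by -1.43, against -3.99 in CMP and -4.26 in GMP. The granule gene Ltf changed by -0.38, against -3.77 and -3.53, and Camp by -0.38, against -3.70 and -2.97. The difference from GMP was also called for the lectin Mgl2 (2.77), which changed by 0.68 without passing, and for the heat shock gene Hspa1a (3.16), whose change in cultured cells was 0.00. Hspa1a was very uneven among WT progenitor arrays. It averaged 6.91 ± 1.64 in WT GMP and 6.43 ± 1.74 in WT CMP, against 3.76 ± 0.15 in Rptor GMP and 3.91 ± 0.17 in Rptor CMP (SD, n = 3 each).

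Other genes had changes of one direction in all 3 populations. Anpep changed by 2.39 in cultured cells, 2.03 in CMP and 2.20 in GMP, Ms4a4c by -2.53, -2.90 and -2.93, and Abca9 by -2.40, -2.00 and -1.90. None of the differences between these changes passed, which does not show that the changes were equal. Mt2 changed by 1.67, against 2.66 in CMP (difference -0.99, adjusted p = 0.0493) and 1.62 in GMP. The median change of the cholesterol list was -0.40, against -0.39 in CMP and -0.52 in GMP, and that of the monocyte list -0.53, against -0.13 and -0.08. The erythroid median was 0.84, against 1.25 and 0.43.

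**Figure D5:**
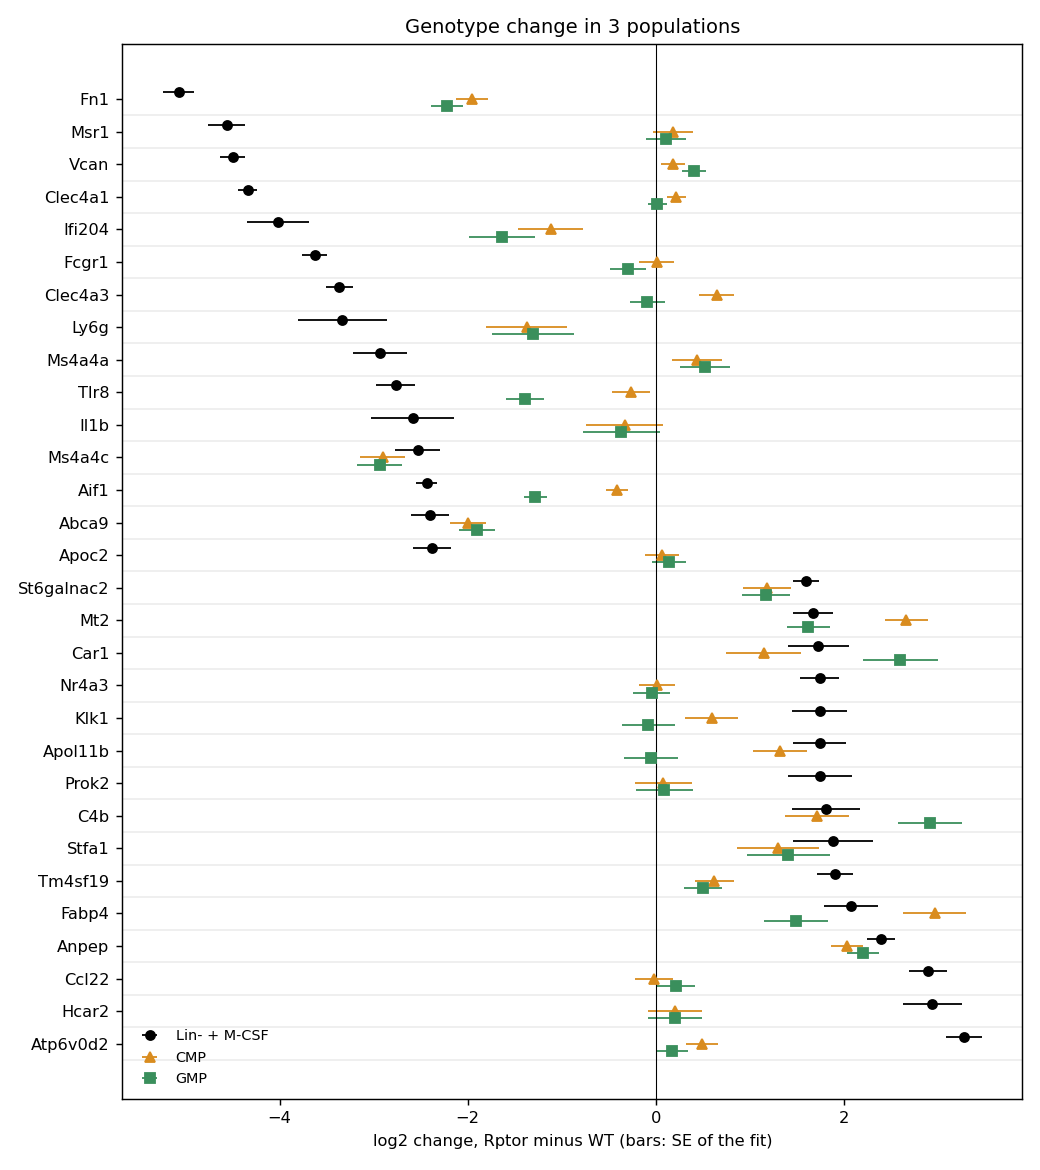
Genotype change (Rptor minus WT, log2) with the SE of the fit for the 15 genes of largest fall and 15 of largest rise in Lin- cells with M-CSF (black circles), beside the change in CMP (orange triangles) and GMP (green squares). Msr1, Vcan and Clec4a1 lie near -4.5 in the cultured cells and near 0 in both progenitors, where their WT signal was 3.44 to 3.96, while Anpep, Ms4a4c and Abca9 lie close together in all 3.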

How the data were processed

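Per the labels' protocols, 1 to 5 ng of total RNA was turned into biotinylated cDNA by NuGEN's WTA Pico v2 and Encore modules and read on arrays. The authors deposited log2 values per probe set; RMA, limma and Partek 6.6 appear in the submitters' processing notes, with no role given. RMA makes arrays share one distribution, so a shift of most transcripts is removed. Of 41345 probe sets, 23521 had 1 gene symbol; the one of highest mean over 20 arrays was kept per gene, and genes under the 25th percentile (log2 3.86) were left out. R 4.3.3 and limma 3.58.1 served for the fit of the 8 arrays (lmFit and eBayes, 6 residual degrees of freedom), and differences between populations in a fit of all 20, which also gave the CMP and GMP changes and their SEs. P-values were Benjamini-Hochberg adjusted over 16638 genes, and called means that this value was under 0.05. Each change is the Rptor mean less the WT mean in log2 units, with the SE of the fit.

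The members, gene lists, motifs and tests were chosen with earlier results of these data known. The 39 lists name 1004 genes, of which 907 had a probe set and 878 were tested; lists are described by counts and medians, without a test. Named genes were the 15 of largest change per direction among called genes without overlap, leaving out predicted and unnamed genes, up to 6 members of smallest p per list with others where the role needs it, a fixed set of genes (1 of them is not reported here) and the 5 of largest difference per direction against CMP and GMP. Replicate numbers did not pair the arrays (correlation of deviations -0.09 to 0.06). Promoter windows came from RefSeq's table for GRCm38.p6. The test was checked on simulated data. Alternatives were other filters, probe set rules, normalizations, weights, thresholds, a replicate block, all 20 arrays in one fit, and each array left out. Figures were drawn with Python 3.11.15 and matplotlib 3.10.9.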

Additional observations from a re-analysis of the deposited data

Results flagged for a closer look

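In groups of 4 arrays, 9 of 180 sets of values held an array far from the other 3, where chance gives about 1 in 20. WT replicate 3 was the far array in Ly6g (9.84, the others 7.18 to 7.62), Il1b (9.24, the others 6.84 to 7.07), Prok2 (6.27, the others 5.16 to 5.35) and the mean of the lipid list (7.06, the others 6.91 to 6.93). The other far arrays were Rptor replicate 1 for Tlr8 (4.52, the others 3.46 to 3.62), Rptor replicate 2 for the means of the M-CSF receptor list (8.42, the others 8.34 to 8.35) and the lysosome list (8.97, the others 8.87 to 8.88), WT replicate 1 for Ccl22 (5.85, the others 5.04 to 5.10) and WT replicate 2 for Aif1 (8.30, the others 8.07 to 8.11). Each of the 9 was the highest of its group.

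The genotype change in the cultured cells differed from that in CMP, by limma's test of the difference, for Ltf (3.39), Camp (3.32), Ccl22 (2.92), Atp6v0d2 (2.79) and Hcar2 (2.74), which were the most positive, and for Msr1 (-4.74), Vcan (-4.68), Clec4a1 (-4.56), Clec4a3 (-4.01) and Gpnmb (-3.88), the most negative. In WT progenitors Msr1, Vcan, Clec4a1 and Ms4a4a averaged 3.39 to 3.96, near the bottom of the scale, so little or no fall could be measured there. Msr1, Vcan and Ms4a4a passed the brightness filter only through the WT cultured arrays, and Atp6v0d2 only through the Rptor cultured arrays. From the change in GMP it differed for Hspa1a (3.16), Ltf (3.15), Atp6v0d2 (3.11), Ifi209 (2.83) and Mgl2 (2.77), and for Vcan (-4.91), Msr1 (-4.67), Clec4a1 (-4.35), Gpnmb (-3.71) and Ms4a4a (-3.45). The largest adjusted p among these was 0.0306, for Hspa1a, followed by 0.000619 for Mgl2. Hspa1a had an SD of 1.64 among the WT GMP arrays, against 0.15 among the Rptor GMP arrays.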

How the results depend on the processing

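The count of 899 called genes stayed within 1.5 times under other filters, probe set rules, normalizations, weights and single arrays left out (606 to 806). With all 20 arrays in one fit it was 2088 (1135 higher, 953 lower; 886 shared), with a fold of at least 1.5 it was 588 (309 and 279), and at an adjusted p under 0.01 it was 348 (152 and 196). Genes called higher numbered 302 to 424 with single arrays left out, lowest without WT replicate 4, and 308 and 314 without Rptor replicates 1 and 2. With the replicate block 685 genes were called (371 higher, 314 lower), each count within 1.5 times of the one without it. Each number occurs once per genotype, so the block could change no estimate or sign, only the p-values. By deviations from the group means, 1 of 8 arrays correlated best with its own number. The count differing from GMP was 1330 with array weights and 488 to 842 with single arrays left out, lowest without WT GMP replicate 2. Of 133 called genes among 262 listed or named, 91 kept their call in all settings but the 2 stricter thresholds, and 39 lost it without at least 1 array. Among the 30 genes of largest change only Stfa1 lost its call (trended robust eBayes adjusted p = 0.107). No value changed sign where it was called. Few arrays and no detection calls limit dim genes.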

Other observations

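Some called genes outside the lists, chosen after their values were seen, add to the picture. Xdh, which encodes xanthine dehydrogenase, the last enzyme of uric acid formation, was at 6.04 ± 0.13 in Rptor and 8.23 ± 0.19 in WT arrays (SD, n = 4 each; -2.19 ± 0.12, limma adjusted p = 2.31e-06). P2ry6, a receptor for uridine nucleotides, fell by 2.07 ± 0.19, and C3ar1, the receptor for complement fragment C3a, by 1.65 ± 0.17, although C3ar1 changed by 1.03 in CMP and 1.12 in GMP. Itga1, a collagen-binding integrin, fell by 1.91 ± 0.12, beside -2.02 in CMP and -3.12 in GMP. S100a4, a calcium-binding protein, was at 10.14 ± 0.11 in Rptor and 11.53 ± 0.24 in WT arrays, and the matrix protein gene Tgfbi fell by 1.42 ± 0.13. Among the rises, Il1r1, the receptor for interleukin 1, was at 7.67 ± 0.03 in Rptor and 6.28 ± 0.07 in WT arrays (1.39 ± 0.09, adjusted p = 9.28e-06), while its ligand gene Il1b was lower. Mogat2, an enzyme of triglyceride formation, rose by 1.57 ± 0.17, Mfsd2b, a sphingosine phosphate exporter of red cells and platelets, by 1.29 ± 0.12, and the red cell antigen gene Kel by 1.46 ± 0.24.

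Of 17824 probe sets with no gene symbol or several, 17 were called (0.0954%), 9 higher and 8 lower, adjusted over those probe sets.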
